A study of Mus musculus with 6 samples.

Results

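Of the genes of phosphodiesterases that break down cyclic AMP (cAMP), 10 were followed as a family. Others, such as Pde1c, stand in a list of their own below. The 10 genes were Pde4a, Pde4b, Pde4c, Pde4d, Pde3a, Pde3b, Pde7a, Pde7b, Pde8a and Pde10a. They were taken by symbol from the 35275 gene IDs of a read count table, and all 10 had a row. The table comes from RNA sequencing of Melb-a, a cultured line of mouse melanoblasts (the precursors of melanocytes) with the genotype C57BL/6J. In the 3 iBRD9 samples the cells spent 48 h in a differentiation medium with 10 µM iBRD9, a compound made to bind the BRD9 bromodomain (BRD9 belongs to SWI/SNF, a chromatin remodeling complex). In the 3 DMSO samples the same medium held the solvent alone. In both groups the medium was DMEM with 10% serum, 2 nM NDP-alpha MSH and 200 nM of the phorbol ester PMA. The DMSO cells too were thus given a stimulus of cAMP signalling, but cAMP itself is not part of these data. A single cell line, a single compound and a single dose limit the model, and an effect through BRD9 cannot be told apart from any other effect of the compound.

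In melanocytes, melanocyte stimulating hormone binds the receptor MC1R, which acts through a stimulatory G protein on adenylyl cyclases. The cAMP they make activates protein kinase A (PKA), PKA activates the transcription factor CREB, and CREB raises the transcription of Mitf, the master regulator of pigment genes. Phosphodiesterases end the signal by hydrolysing cAMP to AMP. The PDE4, PDE7 and PDE8 enzymes act on cAMP, while the PDE3 enzymes and PDE10A also act on cyclic GMP. Pde4d is known as a target of MITF in melanocytes, where its enzyme limits the response to the hormone.

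The Pde4d and Pde4b sequences are shown first because, of the genes that fell by more than 2-fold, these had the most counts, and Pde4a because it went the other way. Promoter windows were taken from RefSeq on build GRCm38.p6, and each holds 250 bases before a transcription start and 50 from it on, written 5′ to 3′ on the strand of the gene. RefSeq windows were matched for 7 of the 10 genes, 13 windows in all. Capitals mark TCATGTG or its core CATGTG, the M-box letters that MITF binds, and TGACG on either strand, the core letters of the CREB element.
Pde4d, chr13:108653927-108654226, plus strand: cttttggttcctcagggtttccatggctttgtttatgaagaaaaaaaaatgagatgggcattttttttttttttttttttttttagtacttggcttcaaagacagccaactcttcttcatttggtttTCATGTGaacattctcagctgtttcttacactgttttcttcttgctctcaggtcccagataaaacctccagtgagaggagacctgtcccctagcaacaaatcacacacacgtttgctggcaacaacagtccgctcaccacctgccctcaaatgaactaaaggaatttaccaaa
Pde4b, window with CATGTG, chr4:102587308-102587607, plus strand: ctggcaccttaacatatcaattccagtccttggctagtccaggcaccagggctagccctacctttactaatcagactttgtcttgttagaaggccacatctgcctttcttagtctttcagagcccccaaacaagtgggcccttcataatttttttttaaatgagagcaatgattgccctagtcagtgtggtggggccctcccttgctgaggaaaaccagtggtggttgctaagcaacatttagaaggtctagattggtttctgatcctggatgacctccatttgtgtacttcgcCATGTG
Pde4b, window with TGACG, chr4:102421305-102421604, plus strand: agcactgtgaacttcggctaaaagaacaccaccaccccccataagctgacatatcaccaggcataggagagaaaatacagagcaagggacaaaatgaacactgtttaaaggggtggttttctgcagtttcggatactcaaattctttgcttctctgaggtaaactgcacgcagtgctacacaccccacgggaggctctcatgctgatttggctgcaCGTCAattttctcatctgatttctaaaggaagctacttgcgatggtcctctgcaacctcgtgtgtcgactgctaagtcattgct
Pde4a, window with TGACG, chr9:21183851-21184150, plus strand: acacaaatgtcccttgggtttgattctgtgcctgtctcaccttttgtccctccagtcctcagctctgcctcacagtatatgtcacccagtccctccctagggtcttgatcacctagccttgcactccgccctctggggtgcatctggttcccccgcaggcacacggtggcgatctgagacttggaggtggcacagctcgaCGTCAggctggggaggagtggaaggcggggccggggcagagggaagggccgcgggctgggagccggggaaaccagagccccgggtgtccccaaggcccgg

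Both strands of every window were searched for the E-box CACGTG, the M-box TCATGTG with its core CATGTG, the CREB element TGACGTCA with its core TGACG, and the AP-1 letters TGANTCA. Each core lies inside its longer motif, so those counts overlap. The Pde4d window held TCATGTG with its first base 123 bases before the start. Among the 13 windows of the family this was the 1 window with TCATGTG, and 2 held CATGTG, the other being the third of the 4 Pde4b windows, 45 bases into the transcript. Of all 32851 windows of this length, 3.77% held TCATGTG and 14.2% held CATGTG. The core TGACG lay in 3 windows of the family, of Pde4a, Pde4b and Pde8a, against 20.8% of all windows. CACGTG (7.15% of all windows), TGACGTCA (1.79%) and TGANTCA (7.81%) were in none of the family's windows (0 of 13). The start of the Pde4d window equals 1 of the 12 annotated starts of its coding transcripts in GENCODE M21, which is on the same build. The start of the Pde4b window with CATGTG also lay 0 bases from such a start of its gene. For the windows with TGACG the distance to the nearest such start was 2 bases (Pde4a), 37 bases (Pde4b) and 331 bases (Pde8a). Counts are per gene, so which start the cells used was not measured.

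PDE4 genes are close relatives, so it matters whether their reads can be told apart. The longest run shared by the coding transcripts of Pde4b and Pde4d was 32 bases, which lay inside the coding part in all 4 Pde4b and all 9 Pde4d transcripts that held it.
Pde4b and Pde4d, shared run: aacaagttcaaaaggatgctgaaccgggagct
No window of 50 bases was shared between any 2 of the 10 genes (0 shared windows for each gene). The longest run shared by any 2 of them was 38 bases, between Pde4c and Pde3a. The sources used here do not give the read length. The exons of Pde3a overlap those of Gm28523, on the opposite strand, over 5.82% of their length, and the exons of Pde7a overlap Gm16093 over 0.620%. The library kit is not described as keeping strand, so those reads cannot be told apart.

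The libraries held 22846391 to 29680952 counts with iBRD9 and 23248475 to 26675006 with DMSO. Melanocyte markers were abundant, with all 8 tested, 1 higher and 4 lower, and a summed level of 15099 to 16631 CPM (counts relative to the scaled library total) with iBRD9 and 15823 to 17935 CPM with DMSO. Of the 6 keratinocyte markers 1 was tested and 0 were called, Krt5 and Krt1 were at 0, and the sum was 3.64 to 4.35 CPM with iBRD9 and 3.50 to 4.21 CPM with DMSO. Of the 4 immune markers 1 rose and 1 fell, Ptprc and Cd3e were at 0, and the sum was 5.45 to 6.20 CPM with iBRD9 and 6.12 to 7.77 CPM with DMSO. Csf1r, the immune marker that rose, had 49, 48 and 38 counts with iBRD9, against 10, 7 and 3 counts with DMSO. It passed the filter on low counts through its iBRD9 libraries. Of the 4 endothelial markers 1 was tested and rose (summed 4.42 to 6.16 CPM with iBRD9, 1.46 to 1.602 CPM with DMSO). Of the 5 fibroblast markers 2 rose and 1 fell (summed 131 to 145 CPM with iBRD9, 75.2 to 99.7 CPM with DMSO). The part of these other markers in the values below was not tested. Beside these counts of markers, 29.8% of all tested genes were called higher and 30.9% lower. Between iBRD9 libraries, the counts differed with a chi-square of 1.93 to 6.33 per degree of freedom. DMSO replicates 2 and 3 differed with 3.06, but DMSO replicate 1 differed from them with 29.2 and 37.5. Without DMSO replicate 1, 10311 of 13933 tested genes were called, against 8262 of 13602 with it, and the phosphodiesterase family had the same counts of calls, 5 lower and 2 higher.

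With iBRD9, 5 of the 10 phosphodiesterase genes fell, 2 rose, 1 did not pass the test and 2 had too few counts to be tested. Pde4d, Pde10a and Pde4b fell by more than 2-fold, Pde3a and Pde7a by less, and Pde4a and Pde4c rose. The test was the quasi-likelihood F-test of edgeR over all genes, and a gene was called at an adjusted p under 0.05. Over all 13602 tested genes 60.7% were called, 30.9% lower and 29.8% higher, so a called gene was the common case in this comparison. With library size alone as the scaling, the median of all genes moved up by 0.106 on the log2 scale, with 4999 higher and 3385 lower calls against 4057 and 4205 here; the 5 falls and 2 rises of the family were called there too. Calls that were also at least 2-fold lower made up 5.46% of all tested genes, and 3 of the 8 tested phosphodiesterase genes were among them. At least 2-fold higher calls made up 9.41% of all genes, and Pde4c was the 1 member there; changes of at least 2-fold either way made up 14.9% of all genes and 4 of these 8. Groups that did not overlap were found in 68.0% of all tested genes, and in 7 of these 8. Each of these counts that takes in rises includes Pde4c, which passed the filter on low counts through its iBRD9 libraries. Its call and its lack of overlap were thus partly fixed by the filter. These are bulk samples, so fewer cells that express a gene and less of its RNA per cell cannot be told apart.

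**Figure D1:**
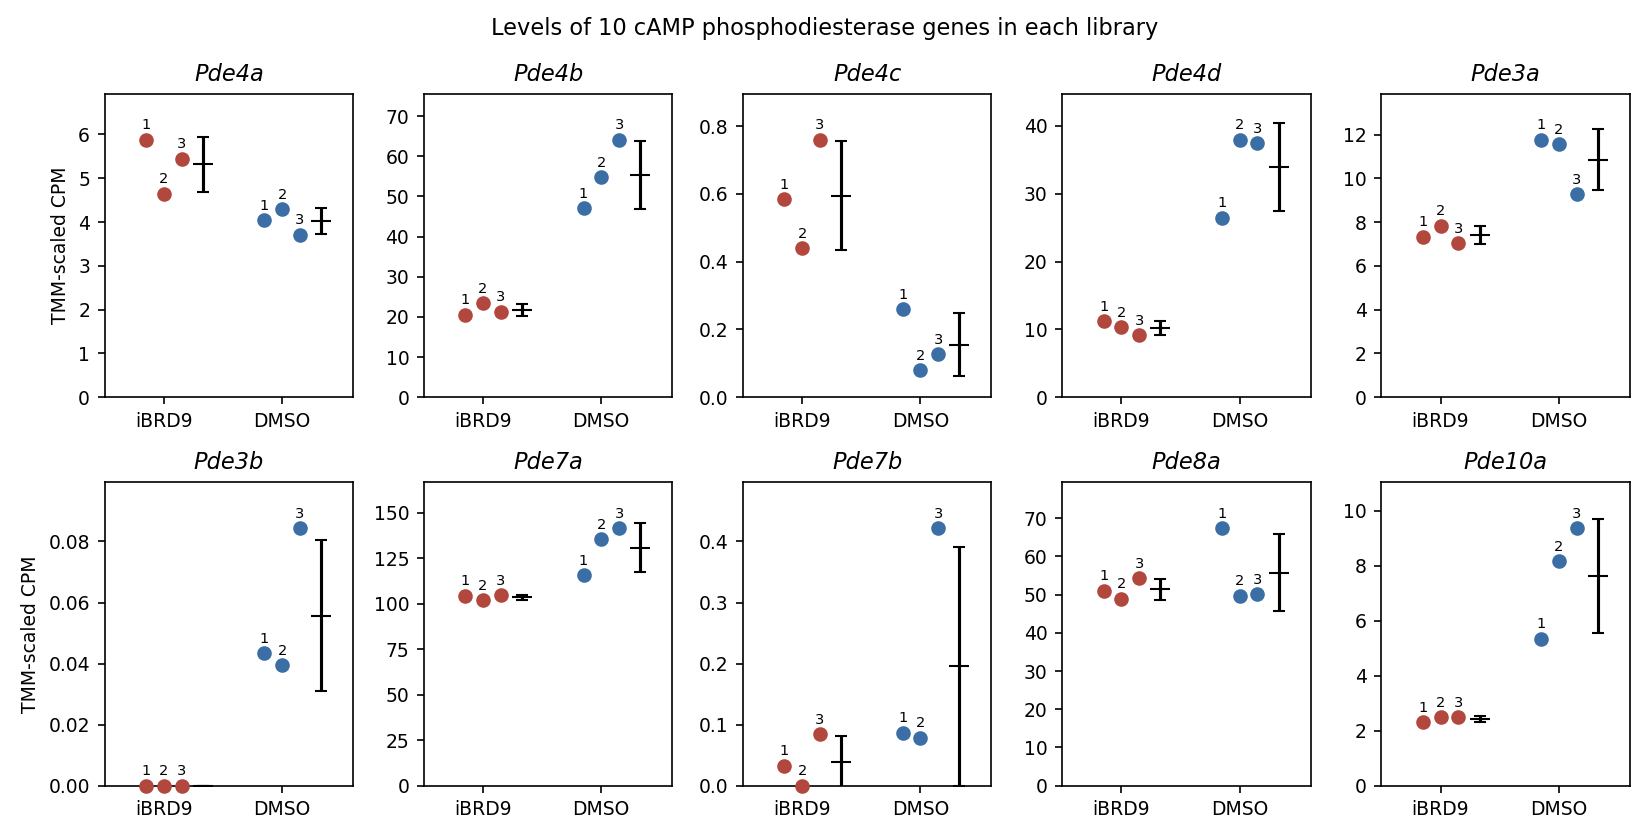
Level of each of the 10 phosphodiesterase genes (TMM-scaled CPM, axes starting at 0) in the 3 iBRD9 libraries (red, left) and the 3 DMSO libraries (blue, right), numbered by replicate, with mean ± SD in black. Pde4d, Pde4b, Pde10a, Pde3a and Pde7a are lower in every iBRD9 library than in any DMSO library, while Pde3b and Pde7b lie near 0 in both groups. Groups did not overlap in 68.0% of all tested genes.

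Pde4d (ENSMUSG00000021699, chromosome 13), the MITF target, had 11.2, 10.3 and 9.16 CPM in the iBRD9 libraries, against 26.5, 37.9 and 37.4 CPM in the DMSO libraries. Every iBRD9 library was below every DMSO library, and DMSO replicate 1 was the lowest of its group. The means were 10.2 ± 1.01 CPM with iBRD9 and 34.0 ± 6.47 CPM with DMSO (SD, n = 3 each), which is 3.32-fold lower (log2 fold change -1.73, SE 0.15, adjusted p = 4.35e-05). DMSO replicate 1 lay a fraction of 0.270 of the way, on the log2 scale, from the other DMSO libraries to iBRD9, and without it the log2 fold change was -1.88 (adjusted p = 1.20e-15, with 1.86e-24 to 0.000736 over all alternatives). Mitf itself had 1244, 1179 and 1195 CPM with iBRD9, against 1219, 1356 and 1317 CPM with DMSO, so its groups overlapped. Its log2 fold change of -0.10 (SE 0.064) did not pass (adjusted p = 0.184). Without DMSO replicate 1 Mitf passed as lower (-0.16, adjusted p = 0.00374), and with library size alone its value was 0.0019 (adjusted p = 0.979, the highest of its alternatives).

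Pde4b (ENSMUSG00000028525, chromosome 4), whose enzyme is a main cAMP phosphodiesterase of immune and brain cells, had 20.6, 23.5 and 21.3 CPM with iBRD9, against 47.1, 54.8 and 64.1 CPM with DMSO. All iBRD9 libraries lay well below all DMSO libraries. The means were 21.8 ± 1.501 CPM with iBRD9 and 55.3 ± 8.54 CPM with DMSO (SD, n = 3 each), which is 2.54-fold lower (log2 fold change -1.35, SE 0.12, adjusted p = 4.12e-05). DMSO replicate 1 was again the lowest of its group, and without it the log2 fold change was -1.46.

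Pde4a (ENSMUSG00000032177, chromosome 9), a more widely expressed PDE4 gene, had 5.88, 4.64 and 5.45 CPM with iBRD9, against 4.04, 4.30 and 3.71 CPM with DMSO. The groups did not overlap, but iBRD9 replicate 2 was close to DMSO replicate 2. The log2 fold change was 0.41 (SE 0.14, adjusted p = 0.0345), the smallest margin of the 7 calls. The call was lost with iBRD9 replicate 1 left out (0.33, adjusted p = 0.131), iBRD9 replicate 3 (0.39, 0.0991), DMSO replicate 2 (0.45, 0.0581) or DMSO replicate 3 (0.35, 0.106), and with the replicate number as a block (0.40, 0.0643). Adjusted p values ran from 0.0143 to 0.131 over all alternatives.

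Pde4c (ENSMUSG00000031842, chromosome 8), the least expressed PDE4 gene here, had 18, 11 and 18 counts in the iBRD9 libraries, against 6, 2 and 3 counts in the DMSO libraries. Every iBRD9 library had more counts than any DMSO library, at levels of 0.595 ± 0.160 CPM with iBRD9 and 0.155 ± 0.094 CPM with DMSO (SD, n = 3 each), close to the limits of counting. The log2 fold change was 1.92 (SE 0.47, 95% interval 0.85 to 3.00, adjusted p = 0.00751), and it ran from 1.59 without DMSO replicate 2 to 2.47 without DMSO replicate 1. Pde4c passed the low-count filter through its iBRD9 libraries, so its call was partly fixed by the filter, and it was not tested where 1 CPM in 3 libraries was required.

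The make-up of the PDE4 counts shifted accordingly, which no scaling between libraries can alter. Pde4d took 29.3%, 26.6% and 24.97% of the PDE4 counts with iBRD9, against 34.0%, 39.1% and 35.5% with DMSO. Pde4a took 15.4%, 11.9% and 14.8% with iBRD9, against 5.19%, 4.43% and 3.52% with DMSO. Pde4b held the majority in every library, with 53.8% to 60.4% with iBRD9 and 56.4% to 60.8% with DMSO, and those ranges overlapped. PDE4 totals were 1176, 971 and 869 counts with iBRD9, against 1793, 2462 and 2500 counts with DMSO. These are shares of counts, not of molecules, since the transcripts differ in length.

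Pde10a (ENSMUSG00000023868, chromosome 17), best known from the striatum of the brain, had 2.31, 2.48 and 2.49 CPM with iBRD9, against 5.34, 8.16 and 9.36 CPM with DMSO. The iBRD9 libraries were nearly alike, while the DMSO libraries spread widely, with replicate 1 again the lowest. The means were 2.43 ± 0.10 CPM with iBRD9 and 7.62 ± 2.06 CPM with DMSO (SD, n = 3 each), which is 3.15-fold lower (log2 fold change -1.65, SE 0.21, adjusted p = 0.000322), and -1.86 without DMSO replicate 1.

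Pde3a (ENSMUSG00000041741, chromosome 6), a cyclic GMP-inhibited enzyme of heart and platelets, had 7.34, 7.84 and 7.05 CPM with iBRD9, against 11.8, 11.6 and 9.27 CPM with DMSO. Here DMSO replicate 3, not replicate 1, was the lowest of its group, and the groups did not overlap. The log2 fold change was -0.55 (SE 0.12, adjusted p = 0.00464). Its relative Pde3b (ENSMUSG00000030671, chromosome 7), the PDE3 enzyme of fat and liver cells, had 0 counts in each iBRD9 library and 1, 1 and 2 counts in the DMSO libraries. A count of 0 allows up to 3 counts, or 0.0974 to 0.127 CPM in the iBRD9 libraries, for counting error only, so a difference in Pde3b was not detectable at this depth.

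Pde7a (ENSMUSG00000069094, chromosome 3), a cAMP-specific enzyme first studied in T cells, had 104, 102 and 105 CPM with iBRD9, against 116, 136 and 142 CPM with DMSO. The iBRD9 libraries lay within a few CPM of each other and below all DMSO libraries. The log2 fold change was -0.34 (SE 0.079, adjusted p = 0.00604). DMSO replicate 1 lay a fraction of 0.622 of the way to iBRD9, and without it the log2 fold change was -0.43. Pde7b (ENSMUSG00000019990, chromosome 10) had 1, 0 and 2 counts with iBRD9, against 2, 2 and 10 counts with DMSO, and was below the filter. Those 10 counts in DMSO replicate 3 made up most of what was seen of Pde7b.

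Pde8a (ENSMUSG00000025584, chromosome 7), a cAMP-specific enzyme of high affinity, had 51.0, 48.9 and 54.3 CPM with iBRD9, against 67.3, 49.7 and 50.04 CPM with DMSO. DMSO replicate 1 was the highest of all 6 libraries and the other 5 lay close together. The log2 fold change was -0.12 (SE 0.12, 95% interval -0.39 to 0.16, adjusted p = 0.419), and 0.03 without DMSO replicate 1. An interval of that width leaves room for a fall of the size seen in Pde7a.

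**Figure D2:**
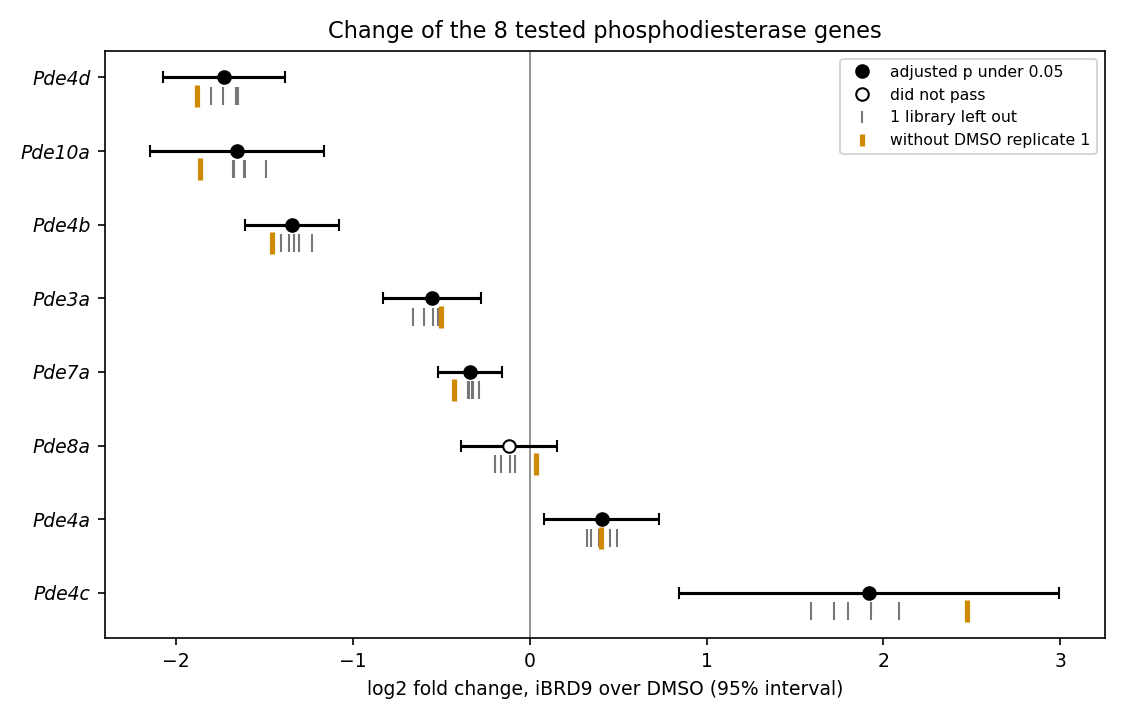
Log2 fold change of iBRD9 over DMSO for the 8 tested phosphodiesterase genes, with 95% intervals; filled points passed an adjusted p under 0.05, grey ticks give the values with 1 library left out, and orange ticks those without DMSO replicate 1. Pde4d (-1.73), Pde10a (-1.65) and Pde4b (-1.35) lie far below 0 with or without any library, while Pde8a crosses 0.

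Set against exon length, the family split into a high and a low tier. Levels were divided by the merged exon length of each gene in GENCODE M21, which overstates the length of genes with many transcripts such as Pde4d. In the iBRD9 libraries Pde7a had 13.4 ± 0.196 CPM per kb and Pde8a 12.7 ± 0.682 CPM per kb, and those ranges overlapped. Pde4b followed with 2.06 ± 0.142 CPM per kb, apart from its neighbours. Pde4d (0.851 ± 0.084), Pde4a (0.695 ± 0.082) and Pde3a (0.582 ± 0.032 CPM per kb) came next in that order, with overlap between neighbours. Pde10a stood below Pde3a with no overlap, at 0.189 ± 0.0081 CPM per kb, and Pde4c had 0.106 ± 0.029 CPM per kb (SD, n = 3).

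In the DMSO libraries the ends of the order were alike and the middle was not. Pde7a (16.9 ± 1.75 CPM per kb) and Pde8a (13.8 ± 2.49 CPM per kb) led and overlapped. Pde4b had 5.24 ± 0.809 CPM per kb and Pde4d 2.83 ± 0.539 CPM per kb, each apart from its neighbours. Pde3a (0.853 ± 0.108), Pde10a (0.593 ± 0.161) and Pde4a (0.525 ± 0.039 CPM per kb) followed, with overlap between neighbours, and Pde4c had 0.028 ± 0.017 CPM per kb (SD, n = 3). Pde4a was thus the fifth of the 10 genes with iBRD9, next to Pde4d, and the seventh with DMSO. In both groups Pde7b and Pde3b came last.

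**Figure D3:**
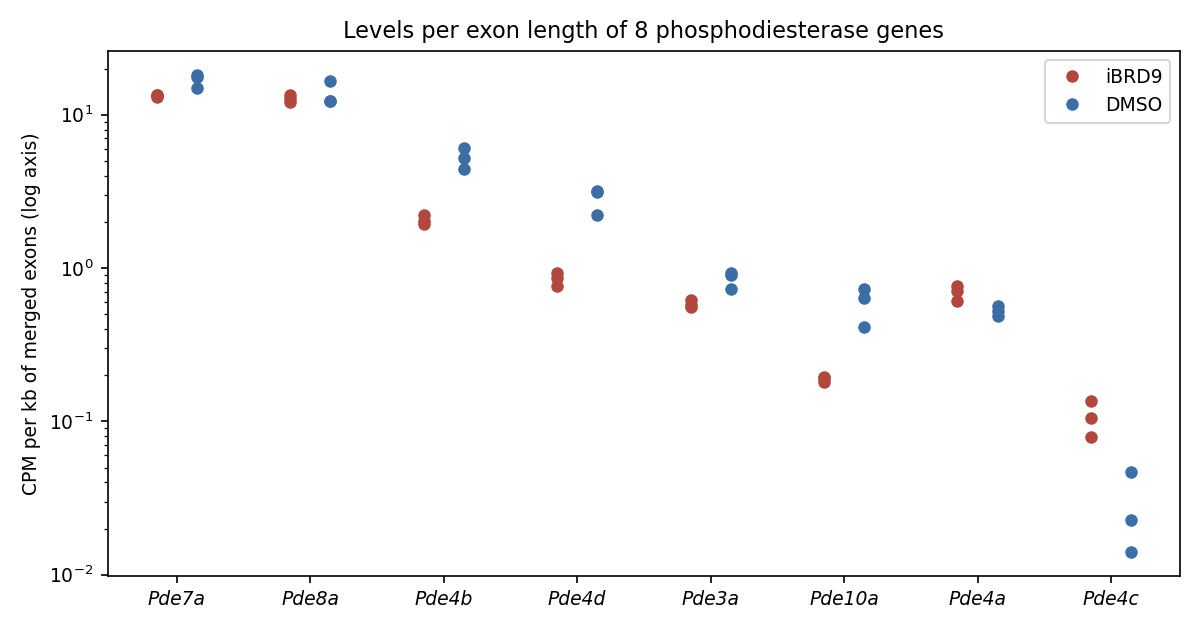
Level per kb of merged exons (CPM per kb, log axis) of 8 phosphodiesterase genes in each iBRD9 (red, left of each pair) and DMSO (blue, right) library, ordered by the DMSO mean; Pde3b and Pde7b are left out, since some of their libraries are at 0. Pde7a and Pde8a stand above 12 CPM per kb in both groups, and Pde4a is the neighbour of Pde4d with iBRD9.

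The summed level of the 10 genes was 203, 199.9 and 205 CPM with iBRD9, against 278, 302 and 316 CPM with DMSO, with no overlap. Most of the counts in both groups came from Pde7a and Pde8a. The median log2 fold change of the 8 tested genes was -0.44, against 0.0071 over all tested genes.

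The genes with a course most like that of Pde4d were 2 transporters and a matrix protein. Likeness was the root mean square distance between log2 CPM values, each gene centred on its own mean, over the 6 libraries and 6298 genes of similar abundance. Slc43a2, an amino acid transporter gene, was nearest (0.054), followed by Slc37a2, a sugar phosphate transporter gene (0.059), and Fbln5, an elastic fibre gene (0.078). Their log2 fold changes were -1.69, -1.69 and -1.61. Slc43a2 had 6.72, 5.92 and 5.62 CPM with iBRD9, against 16.4, 21.3 and 21.6 CPM with DMSO. The similar fold changes and the lower value of DMSO replicate 1 follow from the way these genes were picked.

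Phosphodiesterase genes outside the 10 went both ways. Of 14 such genes 13 were in the table used here and 8 were tested, of which 3 fell, 1 rose and 4 did not pass (median -0.26, with -0.15 with library size alone and -0.11 at 1 CPM in 3 libraries). The shares over all tested genes, for this list and those below, were 30.9% called lower and 29.8% called higher. Among the calls of this list, Pde6g and Pde6b each passed the low-count filter through the group where the gene was higher. Pde1c, a calmodulin-dependent enzyme that hydrolyses cAMP and cyclic GMP, had 43.2, 38.3 and 37.7 CPM with iBRD9, against 90.8, 100.9 and 101.7 CPM with DMSO (-1.30, SE 0.078, adjusted p = 8.07e-06). The groups were well apart, and DMSO replicate 1 was nearer to the other DMSO libraries than for Pde4d. Pde5a, which is specific for cyclic GMP, also fell (-0.37, adjusted p = 0.0127), and lost its call when iBRD9 replicate 2 was left out or library size alone was used, with adjusted p values up to 0.0551.

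Pde6g (-0.92, adjusted p = 0.0321) and Pde6b (1.56, adjusted p = 0.00296), parts of the enzyme of rod photoreceptors, were called at levels of 0.471 ± 0.113 and 1.11 ± 0.035 CPM with iBRD9, against 0.890 ± 0.216 and 0.373 ± 0.142 CPM with DMSO (SD, n = 3 each). Pde6b had 33, 28 and 27 counts with iBRD9, against 10, 12 and 5 counts with DMSO, so it passed the low-count filter through its iBRD9 libraries, as Pde4c did. Pde6g had 12, 15 and 10 counts with iBRD9, against 18, 19 and 27 counts with DMSO. It passed that filter through its DMSO libraries, so both calls were partly fixed by the filter. The call of Pde6g was lost in 8 of 14 alternatives: without iBRD9 replicate 1, iBRD9 replicate 3 or DMSO replicate 3, with the replicate block, DESeq2, no filter or library size alone, and at a threshold of 0.01, with adjusted p values of 0.0168 to 0.121 over all alternatives. Pde1b (-0.40), Pde9a (-0.14), Pde6d (0.14) and Pde8b (0.32) did not pass, and Pde1b passed as lower without DMSO replicate 1 (adjusted p = 0.0284, against 0.382 in the alternative where it was highest).

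Adenylyl cyclases, which make cAMP, moved unevenly. Of 10 genes 8 were tested, with 4 higher, 2 lower and 2 that did not pass (median 0.41, with 0.23 without iBRD9 replicate 3 and 0.25 without DMSO replicate 2). Calls over all tested genes were 29.8% higher and 30.9% lower. Adcy3 (1.31) and Adcy1 (0.68) had the largest rises, and Adcy2 fell (-0.51, adjusted p = 0.00652). Adcy5 was called higher by a small margin (0.23, adjusted p = 0.0459), and its groups overlapped. Adcy9 (-0.17, adjusted p = 0.0456) lost its call when any 1 library other than DMSO replicate 1 was left out, so that 1 cyclase gene was then called lower. Adjusted p values for Adcy9 ran from 0.0029 to 0.370 over all alternatives. The summed level of the cyclases was 336 to 364 CPM with iBRD9 and 326 to 334 CPM with DMSO.

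Among PKA subunits, PKA inhibitors and other proteins that bind cAMP, 7 of 11 tested genes fell and 2 rose (14 in the list, median -0.29, and -0.18 with library size alone). Of all tested genes 30.9% were called lower and 29.8% higher. The 7 falls include Prkar1b, a PKA subunit gene with 10, 8 and 6 counts with iBRD9, against 35, 50 and 27 counts with DMSO. Prkar1b passed the low-count filter through its DMSO libraries, so its call was partly fixed by the filter. Pkib, a PKA inhibitor gene, fell (-0.93, adjusted p = 0.000762), as did Rapgef4, the gene of the cAMP-activated exchange factor EPAC2 (-0.62, adjusted p = 0.00614). The PKA subunit genes Prkar2b (0.60, adjusted p = 0.000600) and Prkaca (0.37, adjusted p = 0.00329) rose. Rapgef4 had 72.1, 71.5 and 63.9 CPM with iBRD9, against 135, 92.8 and 91.4 CPM with DMSO, and without DMSO replicate 1, the highest, its change was -0.42.

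Anchors place phosphodiesterases and PKA at the same sites in the cell, and their genes moved in both directions. All 18 genes on the list of anchors and partners were tested, with 6 higher, 6 lower and 6 that did not pass (median -0.09, and 0.02 with library size alone). Of all tested genes 29.8% were called higher and 30.9% lower. The 6 rises include Gnai1, a G protein gene with 38, 12 and 22 counts with iBRD9, against 0, 6 and 5 counts with DMSO. Gnai1 passed the low-count filter through its iBRD9 libraries, so its call was partly fixed by the filter. Pde4dip, the gene of myomegalin, a protein that binds PDE4D at the Golgi and centrosome, had 60.8, 58.8 and 55.5 CPM with iBRD9, against 99.97, 118 and 114 CPM with DMSO (-0.92, adjusted p = 3.65e-05). Akap6, the anchor that holds PDE4D3 at the nuclear envelope of heart muscle cells, also fell (-0.81, adjusted p = 0.000371). Akap13 (1.05, adjusted p = 2.03e-05) and Akap8, a nuclear anchor (1.05, adjusted p = 0.00165), rose. Akap8 stood at 158 ± 3.13 CPM with iBRD9 and 76.4 ± 25.2 CPM with DMSO, where replicate 1 had 105 CPM and the others 62.4 and 61.2 CPM, and without replicate 1 its change was 1.34.

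Genes that respond to cAMP through CREB, phosphodiesterases left out, divided as well. Of 12 genes 10 were tested, with 3 higher, 2 lower and 5 that did not pass (median 0.09, with 0.20 without iBRD9 replicate 3). Calls over all tested genes were 29.8% higher and 30.9% lower. The nuclear receptor genes Nr4a1 (1.05) and Nr4a2 (0.88) rose, while Nr4a3 (-1.66, adjusted p = 2.91e-06) and the AP-1 gene Fos (-0.88, adjusted p = 0.00979) fell. Nr4a3 and Pde4d thus fell by similar amounts.

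The 20 genes listed as MITF targets, Pde4d left out, included 18 that were tested, of which 9 fell, 6 rose and 3 did not pass (median -0.12). With library size alone 9 fell and 9 rose, and the median was -0.0078. Of all tested genes 30.9% were called lower and 29.8% higher. The falls were led by the pigment enzyme gene Tyr (-2.61) and the melanosome transport gene Rab27a (-1.49). The cell cycle kinase gene Cdk2 (1.17) rose, as did the survival gene Bcl2 (0.39). The fall of Pde4d (-1.73) lay between those of Tyr and Rab27a.

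**Figure D4:**
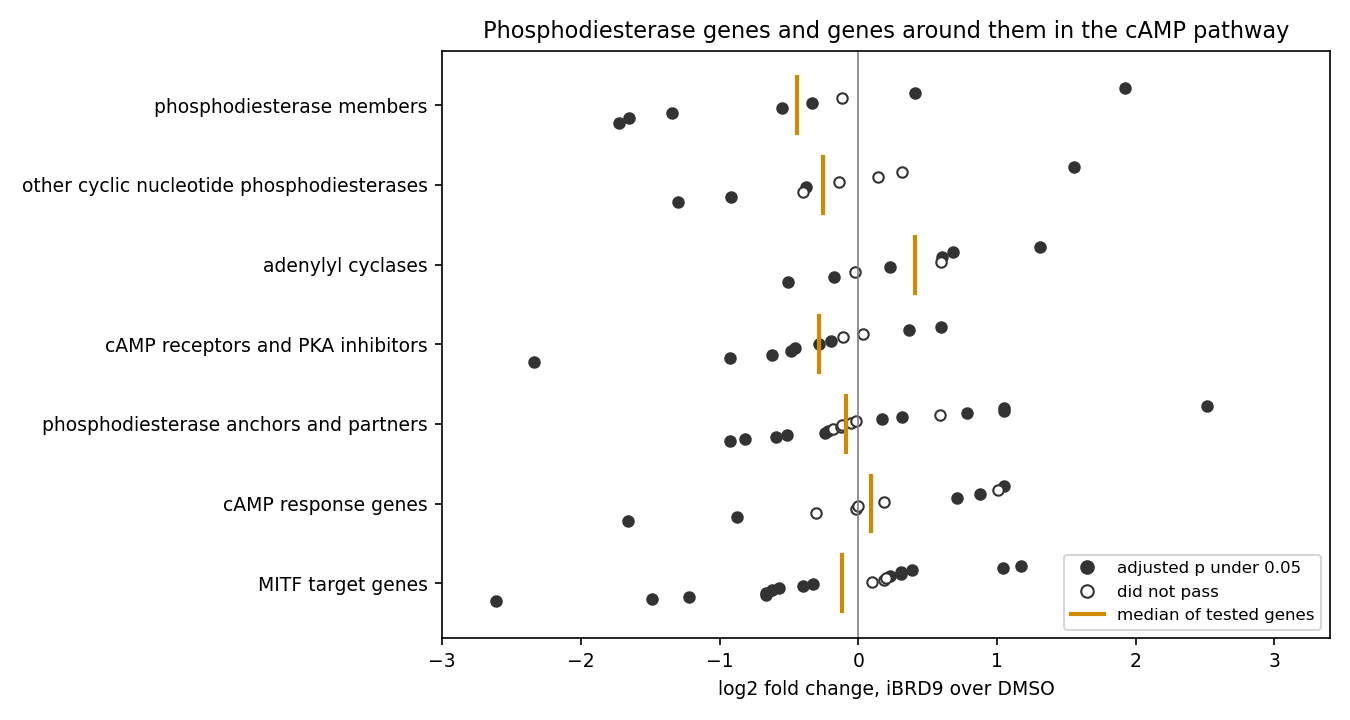
Log2 fold change of iBRD9 over DMSO for each tested gene of the phosphodiesterase family and of 6 lists around it; filled points passed an adjusted p under 0.05 and orange bars mark the medians. Every list holds genes on both sides of 0, and the medians run from -0.44 for the phosphodiesterases to 0.41 for the adenylyl cyclases, whose median was 0.09 with DESeq2 and 0.10 without a filter, below that of the cAMP response genes there (0.17 and 0.18).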

How the data were processed

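RNA of 3 iBRD9 and 3 DMSO samples of Melb-a cells was sequenced after poly(T) bead selection and random-hexamer priming, per the labels' protocols. The authors deposited raw read counts by gene, with Ensembl IDs. The submitters' processing notes name CASAVA 1.8.2, Bowtie2 2.4.5 and GRCm39. The sources used here do not give the counting program, annotation or strand setting. The series' design text calls the samples independent without naming what was repeated. The p-values thus set the difference between groups against the spread between these samples, and do not reach to other cells. No column of the table was left out. Symbols were matched for 34490 of 35275 IDs. Exon lengths and overlaps came from GENCODE M21 and promoters from RefSeq, both on GRCm38, an older build than the authors' own.

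Genes were kept by filterByExpr (minimum count 10), TMM-scaled and tested with edgeR 4.0.16 under R 4.3.3 (robust quasi-likelihood F-test, treatment alone, Benjamini-Hochberg adjustment over 13602 genes). Tests are two-sided, and the standard error is the log2 fold change over the square root of F. CPM values use the TMM-scaled library sizes. The procedure was run on simulated counts, where it called 88 of 98 changes of 2-fold and 67 of 96 of 1.5-fold, with 3.73% of calls false. The simulation had few changed genes and the same dispersion in every library. It thus cannot show how the test does with a library such as DMSO replicate 1. Alternatives were DESeq2 size factors, library size alone, DESeq2 1.42.0, limma-voom (limma 3.58.1), no filter beyond genes at 0, 1 CPM in 3 libraries, a replicate block, a threshold of 0.01 on the adjusted p, and each library left out in turn. The members and lists were chosen with earlier results of these data known. Named are all 10 members, Mitf, every tested gene of the other phosphodiesterases, and from each further list the 2 calls each way that changed most, among genes whose log2 CPM averaged 1 or more. The 3 genes nearest to Pde4d within 2 log2 units of its abundance are named too (log2 CPM with a prior count of 2). Prkar1b, Gnai1, Csf1r and Adcy5 are named for a limit on their calls. Figures were drawn with matplotlib 3.10.9.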

Additional observations from a re-analysis of the deposited data

How the results depend on the processing

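Over 14 alternatives, 102 of 111 values of the 8 tested genes kept their direction and their side of the threshold, among them all of those of Pde4d, Pde4b, Pde4c, Pde10a, Pde3a and Pde7a. Pde4c could not be tested at 1 CPM in 3 libraries. Exceptions were Pde4a, which did not pass with DESeq2 (0.39), without a filter (0.40), with the replicate block (0.40) or at an adjusted p under 0.01 (0.41), with 0.33 to 0.49 when 1 library was left out, and Pde8a, at 0.034 without DMSO replicate 1 (-0.20 to 0.034 when 1 library was left out). So 1 member was called higher with DESeq2, without a filter, at 1 CPM in 3 libraries, with the block and at 0.01, and 1 to 2 when a library was left out. With library size alone Mitf stood at 0.0019 and the median of the anchors at 0.019, which the shift of all genes by 0.106 covers. That scaling also gave 5 cAMP response genes higher, and 2 higher and 1 lower among the other phosphodiesterases, where 1 was lower at 0.01 as well. For adenylyl cyclases 1 gene was lower with library size alone, DESeq2, no filter, 1 CPM, the block and 0.01, and 1 to 2 when a library was left out. Cyclase genes called higher numbered 3 with DESeq2, no filter, the block and 0.01, and 3 to 5 when a library was left out. Medians over the lists shifted with which weakly counted genes were tested: that of the 10 family genes was -0.96 with DESeq2 and -0.95 without a filter, that of the MITF targets -0.38 and -0.37, and that of the adenylyl cyclases 0.09 and 0.10. The replicate numbers were not taken to pair samples: deviations of same-numbered libraries correlated at 0.118, 0.060 and 0.025, and not every library correlated best with its own number. With the replicate block 7937 genes were called, against 8262. Depth limits Pde4c, Pde3b and Pde7b, which have fewer than 20 counts in every library. The cause of each lost call was not tested.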
